A study of Danio rerio with 6 samples.

Results

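Zebrafish embryos were compared between the end of gastrulation (tailbud stage) and early segmentation (7-somite stage). In these embryos the receptors for Nodal, activin and TGF-beta were blocked from sphere stage, within the blastula period. The block was made with SB505124, which inhibits the kinases ALK4, ALK5 and ALK7 (type I receptors of these ligands), and it was in place well before gastrulation began. The comparison uses 2 of the 6 samples of the series, the sphere-treated tailbud and the sphere-treated 7-somite embryos, and covers all 13321 transcript records of the authors' table. The other samples are sphere-treated embryos frozen at shield stage and embryos treated from 30% epiboly and frozen at shield, tailbud or 7-somite stage. Each sample held 30 to 60 whole embryos, and the labels name no strain, genotype or age in hours. All 6 groups carried the inhibitor, and no untreated embryos were analysed here, so a rise or a fall below is a change with stage under the block, and the effect of the block itself was not measured. The question behind the series is which transcripts accompany closure of the neural tube, an event that depends on the time at which Nodal signalling is blocked.

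Nodal ligands act through activin receptors, the co-receptor Tdgf1 and Smad2 and Smad3, and in the zebrafish blastula they induce endoderm and much of the mesoderm at the margin. Mesoderm of the tail forms with less dependence on Nodal, so embryos without early Nodal signals lack most head and trunk mesoderm and still make tail somites. Between tailbud and 7-somite stage the first somites are cut from the presomitic mesoderm by a clock of oscillating Notch targets, the hindbrain divides into rhombomeres, the first neurons differentiate, neural crest is specified and the neural plate folds inward.

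The values are group means after upper-quartile normalisation, each given with a standard error (SE), and all values below are on that scale unless they are called log2 changes. The standard errors have the form that 3 values per mean would give, so 3 was assumed, and the separate values were not analysed here, so whether single samples overlapped cannot be given. Nothing says that these values came from separate clutches, so a p-value here reflects the variation among those values alone, and that variation may be technical. The means of all records summed to 16933934 at tailbud and 15311014 at 7-somite, and the sequencing depth is unknown. Among records at a mean of 100 or more the median SE was 5.15% of the mean at tailbud and 4.73% at 7-somite. A log2 change is log2 of (7-somite mean + 5) over (tailbud mean + 5), which understates changes of low genes. A gene is said to rise or fall only where the limma-moderated test gave a Benjamini-Hochberg adjusted p under 0.05 over all records.

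The step from tailbud to 7-somite changed a large share of the table. In all 3197 records rose, which is 24.0% of those tested, and 3532 fell, which is 26.5%. The larger changes were mostly rises, since 1244 records rose and 655 fell by at least 2-fold, and 403 rose and 92 fell by at least 4-fold. The median log2 change over all records was -0.02. Rescaling the groups to equal totals moved that median to 0.12 and the share of rises among the calls from 47.5% to 65.1%, so small changes depend on the scaling while the large ones named below do not. In the preceding step of the same treatment, from shield to tailbud, 8429 records passed (63.3%), of which 2665 rose and 5764 fell, and that comparison uses the same tailbud embryos.

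Of 9 measured markers of the 7-somite stage 8 rose, and of 4 markers of the tailbud stage 1 fell and 2 rose. Over all records 24.0% rose and 26.5% fell. The hindbrain gene egr2b, the neural crest genes sox10 and foxd3, the proneural gene neurog1, the muscle genes myod1 and actc1a, and the blood and vessel regulators tal1 and etsrp all rose. The ventral gene vox fell from 2949 ± 99.7 to 2098 ± 45.4, while its relative vent stood at 898 ± 73.9 and 1156 ± 112 and did not pass the test. The muscle actin gene actc1b stood at 254 ± 21.5 and 245 ± 9.06, and the presomitic genes msgn1 and tbx16, listed as markers of the earlier stage, rose. Records that moved by at least 2-fold had wider relative errors at tailbud than records that did not pass. For this the records at a mean of 20 or more were taken in each group separately, so the sets differ between groups. Among records that rose by at least 2-fold the median SE was 17.9% of the mean in sphere-treated tailbud embryos (1074 records). It was 7.77% in sphere-treated 7-somite embryos (1238 records) and 8.61% in epiboly-treated tailbud embryos (1145 records). Records that fell by at least 2-fold had 10.9% in sphere-treated tailbud embryos and 6.83% in epiboly-treated ones, against 5.26% and 5.1% for records that passed in neither direction. The classes rest on these same tailbud means and were not matched for abundance, so a wide error cannot be told apart from a low level. The part of this spread in the results was not tested.

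The 12 largest rises, ranked without clone, locus and accession names, included genes of somites, brain regions and neural crest. meox1, a homeobox gene of formed somites, went from 26 ± 10.3 to 1011 ± 281 (log2 change 5.03 ± 0.49, SE, adjusted p = 0.0009). mab21l2, a gene of the eye field and midbrain roof, went from 17 ± 11.2 to 683 ± 49.8 (log2 change 4.97), and lhx9, a LIM-homeobox gene of the forebrain, from 9 ± 3 to 323 ± 10.8. Neural crest sox10 went from 11 ± 2.08 to 448 ± 28.2 (log2 change 4.82 ± 0.18, adjusted p = 0.00022). Another 3 of the 12 mark divisions of the neural plate, namely en2b of the midbrain-hindbrain boundary (6 ± 1.45 to 254 ± 35.6), irx3a (19 ± 8.21 to 618 ± 20.5) and egr2b of alternating rhombomeres (35 ± 16.3 to 886 ± 55.6). tbx6, a T-box gene of the presomitic mesoderm, went from 98 ± 50.5 to 2373 ± 534. The others were the laminin chain gene lamb2l (7 ± 3.53 to 371 ± 27.6), the NMDA receptor subunit gene grin2da (5 ± 2.19 to 260 ± 45.5), gsg1l (6 ± 1.45 to 232 ± 31.6) and egfl6 (5 ± 0.577 to 208 ± 12.6). Every one of the 12 was at 98 or lower at tailbud, most of them near the bottom of the scale. A ranking by ratio favours such low starts.

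The largest falls, ranked in the same way, included maternal and early embryonic regulators, and 9 of the 12 genes had already fallen from shield to tailbud. pou5f3, the zebrafish counterpart of the pluripotency factor Oct4, went from 36652 ± 3290 at shield to 6400 ± 1199 at tailbud and 804 ± 115 at 7-somite (log2 change of the last step -2.98 ± 0.27, adjusted p = 0.00072). nanog went from 1619 ± 506 to 486 ± 83.3 and 60 ± 9.21 over the same stages. The endoderm regulator sox32, a direct Nodal target, went from 1494 ± 129 to 230 ± 44.6 and 16 ± 2.91, and nnr showed the largest fall of the last step, from 571 ± 93.4 to 20 ± 5.2 (log2 change -4.53). vrtn (2186 ± 319 to 256 ± 28.4), the adducin gene add3b (1214 ± 283 to 125 ± 25.2), the glucose transporter gene slc2a12 (823 ± 181 to 75 ± 0.882) and the hyaluronan receptor gene cd44a (149 ± 26.1 to 13 ± 3.61) followed the same course, as did ano9a (157 ± 14.9 to 17 ± 1.73). Of the other 3, 2 had risen to tailbud and 1 had not passed the test of that step. The cyclin gene ccndx stood at 46 ± 18.9, 198 ± 42 and 20 ± 0.882 from shield to 7-somite, the Ras-like gene rasd2a at 347 ± 60, 675 ± 82.3 and 82 ± 6.01, and mid1ip1b at 317 ± 24.7, 233 ± 50.3 and 22 ± 4.41.

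**Figure D1:**
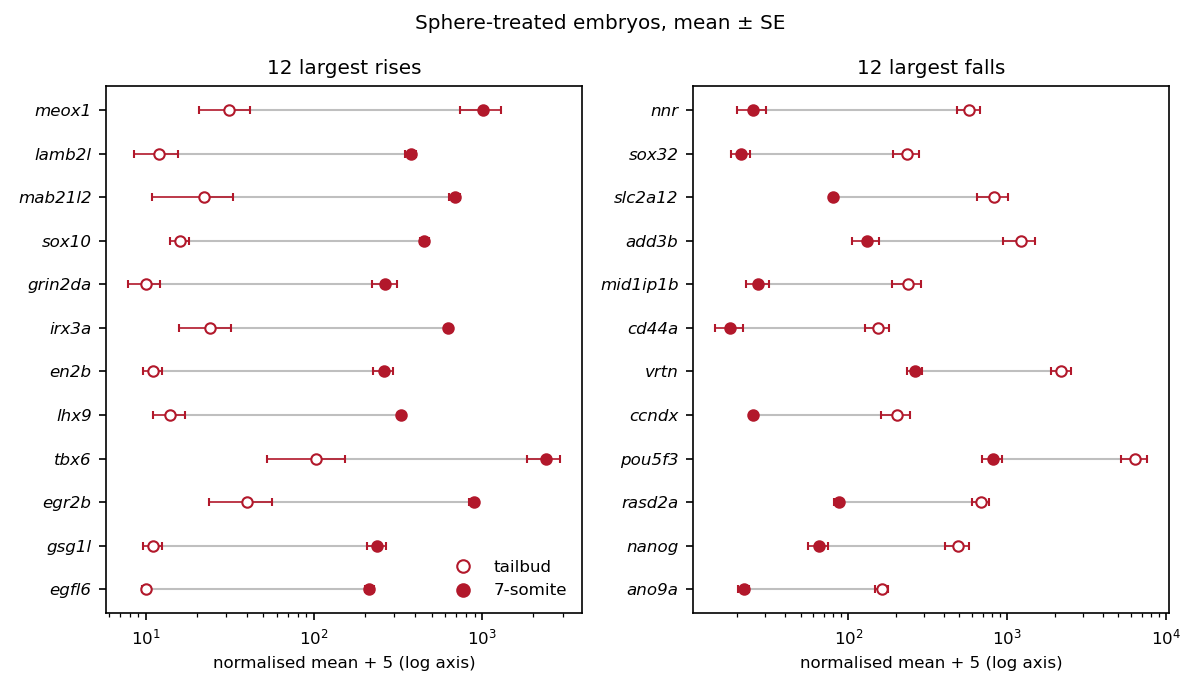
The 12 largest rises and the 12 largest falls from tailbud (open circles) to 7-somite (filled circles) in sphere-treated embryos, as the normalised mean plus 5 on a log axis with bars of 1 SE. Clone, locus and accession names were left out of the ranking. The rising genes start at means of 98 or lower, and several, such as tbx6 and mab21l2, have wide bars at tailbud.

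Gene groups moved in different proportions, as the bar chart of the lists shows. Of 28 measured Hox genes 26 rose and 0 fell, with a median log2 change of 1.78, against 24.0% of all records rising. Of 60 collagen, laminin and integrin genes 45 rose and 3 fell (median 1.38). At the other end 55 of 69 spliceosome genes fell and 0 rose (median -0.52), and 31 of 50 germ cell and maternal genes fell and 5 rose (median -0.66), against 26.5% of all records falling. The lists overlap, and their members are not independent.

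**Figure D2:**
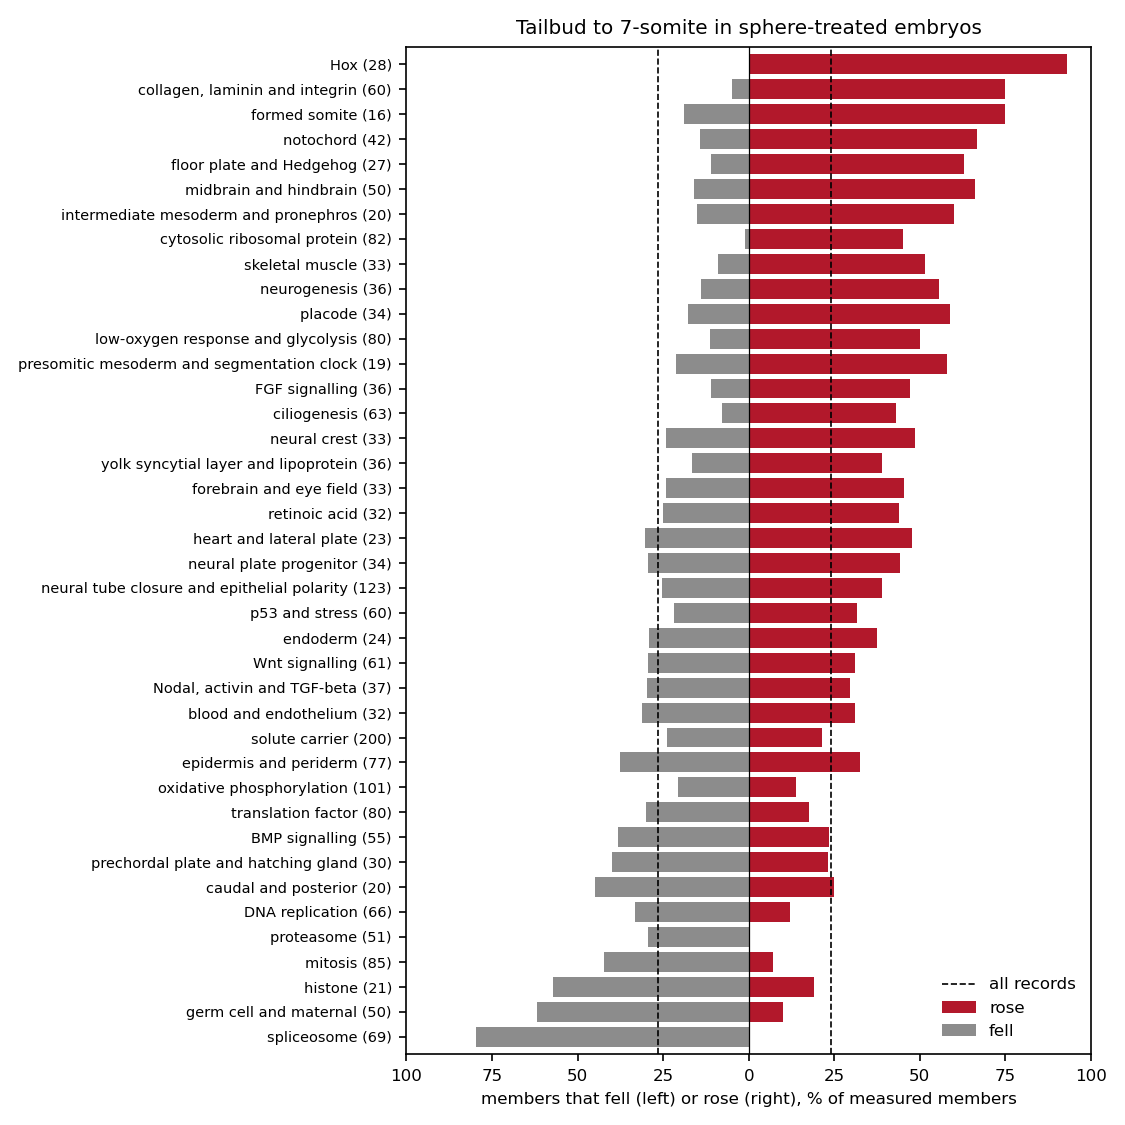
Share of the measured members of each gene list (number in brackets) that rose, to the right, or fell, to the left, from tailbud to 7-somite in sphere-treated embryos. Dashed lines mark the shares of all records, 24.0% and 26.5%; Hox genes lie at one end and spliceosome genes at the other.

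Presomitic and somite genes rose. Of 19 genes of the presomitic mesoderm and segmentation clock 11 rose and 4 fell (median log2 change 0.64), and of 16 genes of the formed somite 12 rose and 3 fell (median 1.74). ripply1, which ends Tbx6 activity where a somite boundary forms, went from 20 ± 0.882 to 375 ± 109 (log2 change 3.93 ± 0.33, adjusted p = 0.00062). The protocadherin gene pcdh8 went from 73 ± 41.6 to 1061 ± 143, and msgn1, a regulator of presomitic differentiation, from 680 ± 362 to 4535 ± 387. In both genes the SE at tailbud was wide beside the mean. tcf15, a gene needed for epithelial somites in mice, went from 18 ± 1.53 to 257 ± 43 with a narrow error at tailbud (log2 change 3.51 ± 0.21). The somite genes six4a (17 ± 10.6 to 156 ± 26.6), six1b (18 ± 10.4 to 127 ± 6.43) and foxc1a (99 ± 44 to 635 ± 93) rose too. cyp26a1, which breaks down retinoic acid in the tail bud, fell from 7789 ± 775 to 1993 ± 202, and the Notch receptor gene notch1a (4394 ± 104 and 5094 ± 34.1) and hes6 (2569 ± 89.8 and 2086 ± 161) did not pass.

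Muscle genes rose as well. Of 33 skeletal muscle genes 17 rose (51.5%) and 3 fell (9.1%), against 24.0% and 26.5% of all records. The myogenic factor gene myf5 went from 47 ± 23.7 to 698 ± 124 and myod1 from 8 ± 3.38 to 77 ± 24.3. The muscle chaperone gene hsp90aa1.1 went from 29 ± 9.39 to 678 ± 111 (log2 change 4.33), the actin gene actc1a from 12 ± 3.46 to 329 ± 72.8, the splicing factor gene rbfox1l from 4 ± 2.33 to 114 ± 35 and smyd1b, which is needed for myofibril assembly, from 11 ± 4.67 to 104 ± 33.1. hsp90aa1.1 and its neighbour hsp90aa1.2 are close copies, and their separate values are uncertain. In whole embryos fewer cells of a type and less RNA per cell cannot be told apart, here and in every group below.

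Many genes of the brain regions, the first neurons and the placodes rose. Of 50 midbrain and hindbrain genes 33 rose (66.0%) and 8 fell (16.0%), and of 33 forebrain and eye field genes 15 rose (45.5%) and 8 fell (24.2%). Of 36 neurogenesis genes 20 rose (55.6%) and 5 fell (13.9%), and of 34 placode genes 20 rose (58.8%) and 6 fell (17.6%). Over all records 24.0% rose and 26.5% fell, so the falls in the forebrain list were near that share. pax8, an early otic and pronephric gene, went from 39 ± 9.94 to 533 ± 82 and the zinc-finger gene sp8a from 9 ± 5.67 to 269 ± 7. In the forebrain list foxg1a (11 ± 9.54 to 316 ± 7), nr2f1a (11 ± 5.84 to 281 ± 10.3) and nr2f2 (35 ± 16.6 to 652 ± 28.9) rose, while the eye field genes rx3 (1515 ± 194 and 1563 ± 102) and six3b (1927 ± 238 and 1560 ± 71.8), already abundant at tailbud, did not pass. Genes of neuronal differentiation rose, among them neurod1 (3 ± 1.45 to 129 ± 9.61), neurod4 (24 ± 7.75 to 199 ± 28.7), the RNA-binding protein gene elavl3 of early neurons (214 ± 102 to 1728 ± 74.9) and the Delta ligand gene dlb (76 ± 36.4 to 546 ± 23.9). Neural plate genes split, with 15 of 34 up (44.1%) and 10 down (29.4%), the falls again near the share of all records. Among them pax6a (134 ± 73.7 to 1284 ± 19.2) and the adhesion gene ncam1a (180 ± 45.9 to 991 ± 27.1) went up. The pan-neural gene sox2 (2961 ± 129 to 2160 ± 120) went down, while sox3 (3663 ± 272 and 3116 ± 239) did not pass. Under equal totals 4 of these 34 fell and 17 rose, against 2334 and 4357 of all 13321 records. The fall of sox2 no longer passed there (adjusted p = 0.052).

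Hox genes of anterior and posterior paralogue groups were among the rises. Log2 changes over the whole list ran from 0.59 to 3.54, and the paralogue groups were not compared. hoxa2b of the hindbrain went from 7 ± 4.16 to 135 ± 6.67 and the posterior gene hoxd11a from 5 ± 3.61 to 109 ± 3.53, with log2 changes of 3.54 and 3.51. hoxb2a (3 ± 3 to 88 ± 9.21), hoxa10b (15 ± 7.13 to 195 ± 12.4) and hoxb1a (29 ± 8.74 to 231 ± 44.3) were the other members of the 5 with the largest changes. The 2 that did not pass, hoxb8a (195 ± 31.7 and 296 ± 26.1) and hoxb8b (45 ± 12.3 and 100 ± 23.4), were higher in mean at 7-somite as well. The caudal list did not share this course: of 20 genes 5 rose and 9 fell. Its rises were near the 24.0% of all records, and only its falls were above the matching share, 26.5%. The tail genes eve1 (1248 ± 113 to 460 ± 17.2) and sp5l (5739 ± 345 to 2215 ± 253) went down, and cdx4 (7337 ± 88.9 and 6312 ± 301) did not pass. The median of the caudal list was -0.07 and turned to 0.08 under equal totals, with 9 up and 8 down. Under that setting the median of all records was 0.12, and 4357 of 13321 records rose and 2334 fell.

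In the neural crest list 16 of 33 genes rose (48.5%, against 24.0% of all records) and 8 fell (24.2%, near the 26.5% of all records). Beside sox10 the SoxE genes sox9b (40 ± 13.1 to 827 ± 29.5) and sox8b (10 ± 3.67 to 100 ± 2.08) rose. snai2, a regulator of epithelial-mesenchymal transition, had fallen from 1559 ± 204 at shield to 206 ± 42.3 at tailbud and returned to 1222 ± 41.4 at 7-somite. It belongs to 680 records that fell and then rose in the sphere-treated embryos. Ranked by the smaller of the 2 changes, without clone, locus and accession names, dock1 had the strongest such course. This guanine exchange factor gene of migrating and fusing cells stood at 2400 ± 633, 98 ± 9.29 and 686 ± 17.9. Both steps use the same tailbud mean, so an error in it pushes the 2 changes apart. The opposite course, up and then down, was taken by 213 records, among them the transcription factor genes klf2a (1139 ± 216, 3916 ± 257 and 723 ± 23) and phox2a (126 ± 32, 766 ± 79.7 and 170 ± 37.6) and the GABA receptor subunit gene gabrp (50 ± 17.9, 580 ± 50.4 and 123 ± 6.64).

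Of 123 measured genes for neural tube closure, planar polarity, apical constriction, cell adhesion and folate metabolism 48 rose (39.0%, against 24.0% of all records) and 31 fell (25.2%, against 26.5%). Their median log2 change was 0.15. Under equal totals 55 rose and 18 fell, against 4357 and 2334 of all 13321 records. Of the apical constriction genes shroom3, whose product acts at apical junctions, fell from 313 ± 20.1 to 207 ± 9.06 (log2 change -0.58 ± 0.11, adjusted p = 0.007), while shroom4 rose from 1596 ± 330 to 3431 ± 197. The kinase genes rock1 (1020 ± 50.2 to 1327 ± 42.7) and rock2a (1230 ± 82.8 to 1587 ± 6.33), whose products activate myosin, rose. The planar polarity genes vangl2 (2524 ± 71.1 to 1815 ± 55.9), celsr1a (3658 ± 61.1 to 2178 ± 144), fzd7b (7431 ± 435 to 4307 ± 339), gpc4 (1764 ± 113 to 1024 ± 41.3) and wnt11f2 (913 ± 26.6 to 571 ± 37.3) all fell, while prickle2b (425 ± 19.1 to 744 ± 49) and daam1b (443 ± 26.5 to 891 ± 31.7) rose. scrib (5710 ± 329 and 5989 ± 127), ptk7a (758 ± 44.7 and 739 ± 19.1), dvl2 (1243 ± 43.9 and 1128 ± 9.56) and dvl3a (1479 ± 37 and 1414 ± 21) did not pass.

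Adhesion and polarity genes of the same list also went both ways. cdh2, the neural cadherin needed for closure in zebrafish, went from 7575 ± 298 to 10285 ± 525 (log2 change 0.44 ± 0.10, adjusted p = 0.014), and cdh1, the epithelial cadherin, stood at 5013 ± 131 and 4398 ± 249 and did not pass. beta-Catenin gene ctnnb1 fell from 51238 ± 1937 to 31385 ± 561 and ctnna1 from 3318 ± 136 to 2599 ± 42.5. Apical determinants crb2a (37 ± 21.4 to 432 ± 48.7) and pard6gb (549 ± 47.1 to 1091 ± 19.4) and the tight junction genes tjp1a (891 ± 35.3 to 1430 ± 79.1) and tjp1b (1627 ± 82.8 to 2843 ± 47.2) rose. The ectoderm regulators grhl2a (181 ± 23.2 to 71 ± 11.2) and grhl3 (1065 ± 115 to 721 ± 55.2) fell, and so did zic2a (4088 ± 225 to 2561 ± 191) and zic2b (9231 ± 376 to 6731 ± 537), while zic5 (161 ± 28.4 to 511 ± 15) rose. The ephrin receptor gene epha7 (81 ± 44.6 to 656 ± 31.1) and actn1 (52 ± 8.39 to 400 ± 57) were among the larger rises. Of the folate genes dhfr fell from 5507 ± 524 to 1231 ± 39.1, the largest fall of the list, and shmt1 (1366 ± 57.2 to 1968 ± 117) and shmt2 (303 ± 10.4 to 481 ± 13.2) rose. Under equal totals the falls of ctnna1, grhl3 and zic2b no longer passed (adjusted p of 0.096, 0.076 and 0.078).

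**Figure D3:**
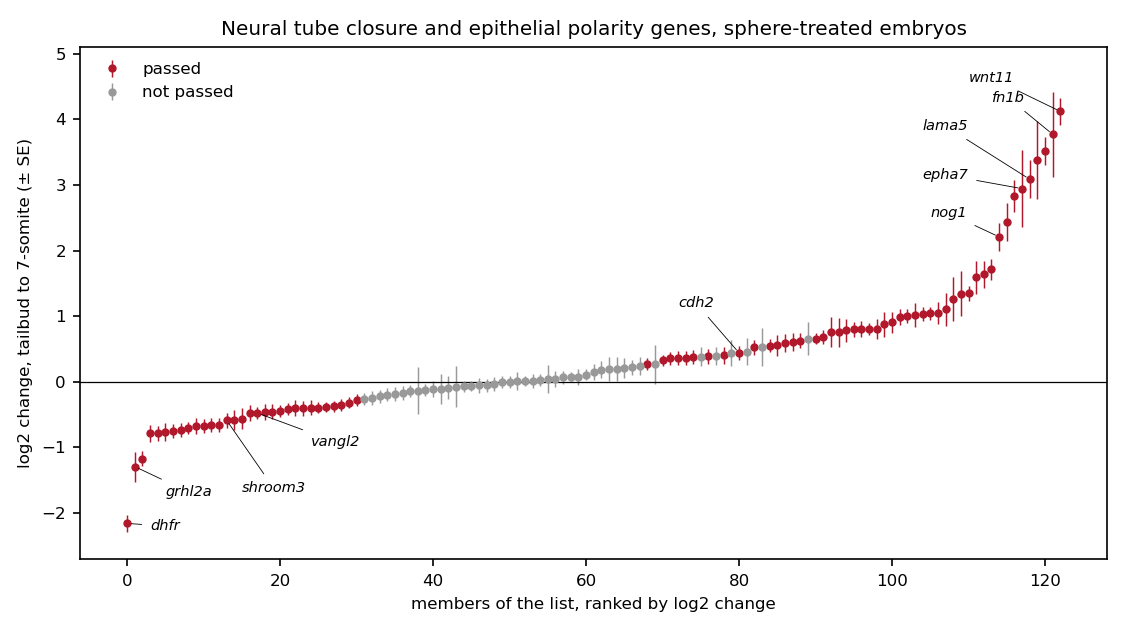
Log2 change with bars of 1 SE from tailbud to 7-somite for the 123 measured genes of the neural tube closure and epithelial polarity list, ranked by size, with genes that passed the test in red. dhfr lies lowest at -2.16 and wnt11 highest at 4.12.

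Most matrix genes rose, as counted above. fn1b, a fibronectin of the somite boundary and the heart field, went from 643 ± 365 to 8832 ± 955 and lama5, an epidermal basement membrane laminin, from 575 ± 125 to 4918 ± 609. col2a1b (52 ± 21 to 1058 ± 59.8), col15a1b (97 ± 31.8 to 1251 ± 22.6) and the heparan sulfate proteoglycan gene agrn (46 ± 23.8 to 562 ± 36.2) rose. lamb1a (15160 ± 318 and 14833 ± 822) and fn1a (13269 ± 2439 and 20939 ± 2131), already abundant at tailbud, did not pass. Among signalling genes, 17 of 36 in the FGF list rose (47.2%) and 4 fell (11.1%), against 24.0% and 26.5% of all records. The rises were led by fgfrl1a (12 ± 5.92 to 229 ± 25.9) and fgfr3 (31 ± 9.35 to 244 ± 32.3). The feedback inhibitor gene dusp6 (3050 ± 300 and 3439 ± 245) did not pass. In the Wnt list 19 of 61 rose (31.1%) and 18 fell (29.5%), near the 24.0% and 26.5% of all records, and its rises included the ligand genes wnt11 (27 ± 4.93 to 551 ± 44.8), wnt7ba (7 ± 1.86 to 130 ± 6.66) and wnt4 (5 ± 3.18 to 107 ± 2.03) and the secreted Wnt inhibitor genes sfrp2 (6 ± 2.91 to 154 ± 33.6) and wif1 (7 ± 0.667 to 163 ± 41.8).

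Of 37 genes of the blocked pathway itself 11 rose and 11 fell, 29.7% each way, near the 24.0% and 26.5% of all records. foxh1, the DNA-binding partner of Smad2 in Nodal responses, fell from 1833 ± 310 to 330 ± 24.4. smad3a rose from 65 ± 14.9 to 339 ± 8 and tgfbi, a matrix protein gene induced by TGF-beta in mammals, from 69 ± 2.33 to 494 ± 131. The type I receptor gene acvr1ba stood at 1545 ± 133 and 1893 ± 67.1 and did not pass. Of 55 BMP pathway genes 13 rose (23.6%, near the share of all records) and 21 fell (38.2%). Under equal totals 17 rose and 19 fell, against 4357 and 2334 of all 13321 records, so the falls stayed above that share.

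Counts of growth and RNA-processing genes moved with the scaling. Before rescaling 24.0% of all records rose and 26.5% fell, and the falls among proteasome genes (29.4%) were near that share. Under equal totals 4357 of 13321 records rose and 2334 fell, and the median log2 change of all records was 0.12. The spliceosome genes snrpa (5145 ± 492 to 2134 ± 105) and srsf3a (5366 ± 405 to 2311 ± 139) fell by more than 2-fold, and under equal totals 42 of 69 still fell and 1 rose. Of 85 mitosis genes 36 fell and 6 rose (21 and 11 under equal totals), with fbxo5, an inhibitor of the anaphase-promoting complex, down from 1242 ± 99.7 to 685 ± 33.4 and mki67 (16191 ± 438 and 15746 ± 410) not passing. Of 66 DNA replication genes 22 fell and 8 rose, with the cyclin gene ccne1 (1323 ± 161 to 547 ± 40.5) and the licensing gene cdt1 (2873 ± 243 to 1580 ± 77.8) down, but under equal totals the counts were 15 and 16 and the median turned from -0.13 to 0.02. Ribosomal protein genes moved the other way, with 37 of 82 up and 1 down and no change of 2-fold (78 up and 0 down under equal totals). Of 51 proteasome genes 15 fell and 0 rose, against 3 and 3 under equal totals, and of 101 oxidative phosphorylation genes 21 fell and 14 rose, against 10 and 26.

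The same interval in embryos treated only from 30% epiboly gives the nearest comparison, and these groups share no samples with the sphere-treated ones. There 2873 records rose (21.6%) and 2976 fell (22.3%). Across all records the log2 changes of the 2 treatments had a Pearson correlation of 0.858, a description across records, which are not independent and share their abundance and normalisation. Of the sphere-treated calls 2181 rises and 2207 falls had the same direction as a call in the later treatment, 30 rises met a fall there and 7 falls met a rise. Among the largest rises mab21l2 reached 890 ± 109 from 23 ± 1.73, egr2b 1139 ± 47.9 from 45 ± 6.69 and sox10 720 ± 77.4 from 19 ± 2.65 in epiboly-treated embryos, and none of the step differences of these genes passed (adjusted p of 0.99, 0.98 and 0.88).

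The difference between the steps was tested record by record. It was higher in sphere-treated embryos for 174 records (1.31% of those tested) and lower for 96 (0.721%), at an adjusted p under 0.05, and 2519 records had an unadjusted p under 0.05. These counts depend on the variance model: they were 54 and 19 if each mean rested on 2 values, and 305 and 325 with a variance averaged over all groups. By size alone, and with no test of the level at one stage, 2 starting levels were common among the higher steps, and some records had neither. At tailbud 80 of the 174 records were at least 2-fold lower in sphere-treated than in epiboly-treated embryos. Of those 80, 48 were within 1.5-fold at 7-somite and 13 were still at least 2-fold lower. Another 72 were within 1.5-fold at tailbud, and 26 of those were at least 2-fold above the epiboly-treated level at 7-somite. Of the 96 lower steps 71 started within 1.5-fold. The step difference is calculated from these same means, so part of this split is built into the selection of records. The same shares over all 13321 records were not counted.

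**Figure D4:**
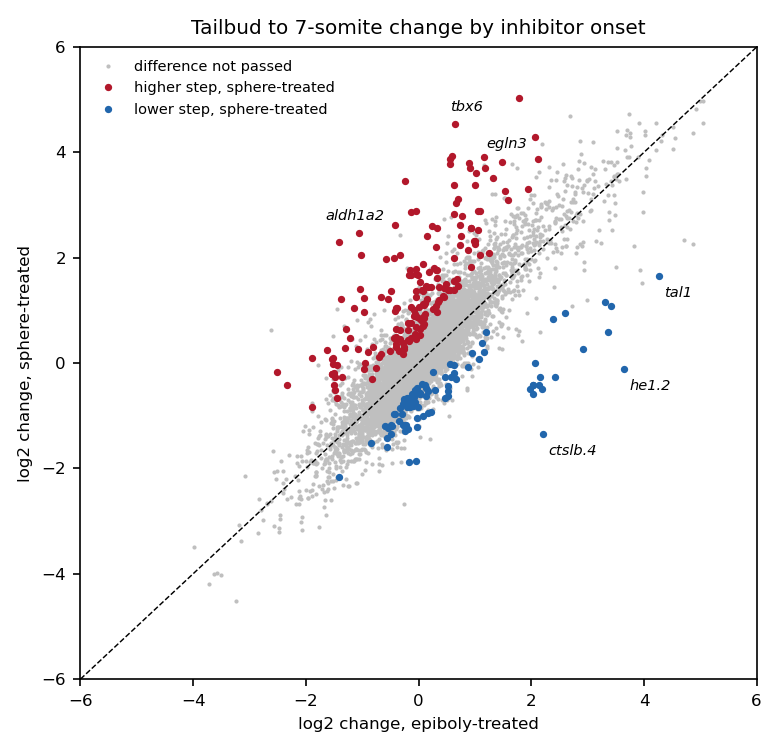
Log2 change from tailbud to 7-somite in sphere-treated (vertical axis) against epiboly-treated embryos (horizontal axis) for 13321 records, with the 174 higher steps in red, the 96 lower steps in blue and equal changes on the dashed line. tbx6 and egln3 lie far above the line and he1.2 and ctslb.4 far below it.

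The paraxial mesoderm genes named here started lower in sphere-treated embryos at tailbud. Several, such as ripply1 and meox1, were still lower in mean at 7-somite. tbx6 stood at 98 ± 50.5 and 2373 ± 534 in sphere-treated and at 1731 ± 148 and 2728 ± 197 in epiboly-treated embryos at tailbud and 7-somite (step difference 3.87 ± 0.69 on the log2 scale, adjusted p = 0.021). ripply1 stood at 20 ± 0.882 and 375 ± 109 against 509 ± 37.2 and 775 ± 42 (step difference 3.32, adjusted p = 0.003), and meox1 at 26 ± 10.3 and 1011 ± 281 against 466 ± 21.9 and 1615 ± 123. In the presomitic list 7 of 19 genes and in the formed somite list 6 of 16 had a higher step in sphere-treated embryos, against 1.31% of all records, and 0 had a lower one. In mean, 8 and 6 genes of these lists were at least 2-fold below the epiboly-treated level at tailbud, and 1 and 1 at 7-somite. Other lists held such genes too. They were 12 of 28 Hox genes at tailbud and 0 at 7-somite, and 12 and 0 of 50 midbrain and hindbrain genes. In the heart and lateral plate list they were 10 and 5 of 23, while the DNA replication and mitosis lists held 0 at both stages. The same shares over all records were not counted. Without moderation of the variance the differences of tbx6 and meox1 did not pass (adjusted p of 0.061 and 0.055). tcf15 and lbx2 (18 ± 10.7 to 333 ± 75 against 410 ± 52 to 606 ± 34.5) also rose in both treatments from a lower start in sphere-treated embryos. foxc1a also started lower in sphere-treated embryos and rose there, but it fell in epiboly-treated ones (1289 ± 110 to 960 ± 26.7). six4a (198 ± 2.03 and 180 ± 5.29 in epiboly-treated embryos) did not pass there. fsta, whose product follistatin binds activin and BMPs, rose from 47 ± 11.4 to 569 ± 168, against 1871 ± 163 and 1575 ± 60.5 in epiboly-treated embryos, where it did not pass.

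Genes of retinoic acid synthesis followed a related course. aldh1a2, the enzyme that makes retinoic acid in paraxial mesoderm, went from 83 ± 22.4 to 483 ± 141 in sphere-treated and from 1209 ± 119 to 578 ± 21 in epiboly-treated embryos (step difference 3.53 ± 0.50, adjusted p = 0.0072). rdh10a, which makes its substrate, went from 117 ± 43.8 to 596 ± 114 against 2085 ± 234 to 784 ± 13.7. Both genes rose under the earlier block and fell under the later one. The heart and lateral plate list had 5 of 23 genes with a higher step, against 1.31% of all records. Among them were aplnrb (148 ± 57.6 to 600 ± 67.8 against 941 ± 79 to 625 ± 6.39) and the pharyngeal gene tbx1, which stayed low (2 ± 0.577 to 13 ± 1 against 370 ± 44 to 261 ± 16). The midline gene foxa2 also stayed low while its step differed (7 ± 2.19 to 45 ± 21.2 against 402 ± 47.6 to 195 ± 19.2).

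Step differences that passed, with a mean of at least 100 in some group, were ranked without clone, locus and accession names. Hatching gland, blood and notochord sheath genes gave the 6 lowest. The hatching gland derives from the prechordal plate, which depends on Nodal, and its enzyme gene he1.2 stood at 9 ± 2.91 and 8 ± 2.03 in sphere-treated against 81 ± 2.73 and 1073 ± 123 in epiboly-treated embryos (step difference -3.75 ± 0.36, adjusted p = 0.0014). The cathepsin gene ctslb.4 stood at 28 ± 3.84 and 8 ± 4.49 against 1467 ± 175 and 6808 ± 637, and ctslb at 3 ± 0.333 and 1 ± 1 against 240 ± 33.7 and 1071 ± 96.4. he1.1 passed the test of a rise at very low means, 3 ± 0.577 and 7 ± 0.667, against 68 ± 14.8 and 749 ± 82.3. he1.1 and he1.2, and ctslb and ctslb.4, are near-identical copies whose reads may be split between them. tal1, which specifies blood and vessel precursors, rose from 22 ± 2.96 to 80 ± 26.9 against 27 ± 1 to 610 ± 47.8 (step difference -2.61, adjusted p = 0.016), while for its partner etsrp, at 17 ± 2.52 and 106 ± 42.4 against 21 ± 5.21 and 675 ± 43.4, the difference of -2.37 did not pass (adjusted p = 0.061), and without moderation of the variance that of tal1 did not pass either (0.051). emilin3b of the notochord sheath stood at 3 ± 0 and 12 ± 2.85 against 9 ± 0.882 and 145 ± 25.4. Across the notochord list 28 of 42 genes rose in sphere-treated embryos (66.7%, against 24.0% of all records). That list also holds genes of protein secretion and collagen processing, such as p4ha1b, which is in the low-oxygen list as well. In that list 3 steps were higher and 1 lower, against 1.31% and 0.721% of all records. In mean, however, 12 of the 42 were at least 2-fold below the epiboly-treated level at tailbud and 10 at 7-somite. The same shares over all records were not counted. One of these genes, emilin3a (11 ± 3.18 to 133 ± 54.9 against 203 ± 18.1 to 1385 ± 229), started and ended lower.

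Among genes of the low-oxygen response and glycolysis most of the higher steps started within 1.5-fold at tailbud. Of 80 measured genes 40 rose and 9 fell in sphere-treated embryos, and 20 rose and 13 fell in epiboly-treated ones. The step was higher in sphere-treated embryos for 17 of the 80 and lower for 0, against 1.31% and 0.721% of all records. Of the 17, 13 started within 1.5-fold at tailbud. egln3, a prolyl hydroxylase induced by HIF, started higher in sphere-treated embryos and went from 156 ± 20 to 2223 ± 400 against 46 ± 3.51 to 90 ± 30.6 (step difference 2.89 ± 0.50, adjusted p = 0.019). pfkfb3, which stimulates glycolysis and started within 1.5-fold, went from 80 ± 3.71 to 1277 ± 250 against 61 ± 3.61 to 142 ± 13.1, and the glycolytic enzyme genes pgk1 (111 ± 6.44 to 817 ± 63.3 against 110 ± 11.3 to 173 ± 14.2), aldocb (72 ± 6.36 to 629 ± 74 against 59 ± 5.46 to 97 ± 15.4) and ldha (95 ± 5.81 to 610 ± 79.4 against 87 ± 2.03 to 148 ± 13.4) did as well, all 4 rising in both treatments. The collagen prolyl hydroxylase gene p4ha1b (809 ± 27.7 to 4806 ± 304 against 605 ± 59 to 1164 ± 120) also rose in both. The HIF inhibitor gene hif1an (758 ± 16 to 1634 ± 89.1 against 681 ± 52.3 to 724 ± 32.8) did not pass in epiboly-treated embryos, and the lactate transporter gene slc16a3b (176 ± 2.03 to 347 ± 23.4 against 224 ± 18.3 to 112 ± 0.667) fell there. Without moderation of the variance the difference of egln3 had an adjusted p of 0.056, and those of the other 7 genes passed. plod2, which modifies collagen, started lower in sphere-treated embryos (21 ± 3.46 to 332 ± 83.3 against 379 ± 53.3 to 860 ± 39).

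Not every gene of these pathways moved. The abundant enzyme genes aldoaa (15196 ± 451 and 15898 ± 673) and gapdh (1922 ± 94.9 and 2244 ± 399) and the HIF subunit gene hif1ab (3204 ± 16.3 and 3096 ± 61.8) did not pass in sphere-treated embryos. pfkfb4b (5844 ± 1003 to 1209 ± 68.4), the carbonic anhydrase gene ca9 (4379 ± 433 to 1169 ± 144) and the transporter gene slc16a1b (5685 ± 180 to 2601 ± 15.2) fell. In the same embryos the heat shock gene hsp70.3 went from 30 ± 4.49 to 184 ± 129 against 53 ± 9.35 and 41 ± 3.76 in epiboly-treated embryos. In the list of p53 and stress genes 19 of 60 rose (31.7%) and 13 fell (21.7%), near the 24.0% and 26.5% of all records. In this list 0 had a step that differed between treatments, against 2.03% of all records, a share at which 60 genes would hold few. In the yolk syncytial layer and lipoprotein list 14 of 36 rose (38.9%) and 6 fell (16.7%), against the same shares of all records. Errors at 7-somite were wide in serpina1l (291 ± 81.3 to 1251 ± 423) and apoa2 (853 ± 237 to 3503 ± 986). In the yolk list 0 steps passed the test of a difference, which says little at 2.03% of all records. In mean, however, 11 of these 36 were at least 2-fold above the epiboly-treated level at 7-somite and 1 at tailbud, against 24 and 4 of the 80 low-oxygen genes. The same shares over all records were not counted. The median log2 step difference was 0.56 in the yolk list and 0.37 in the low-oxygen list, and 0.02 in the list of p53 and stress genes. The part of stress or yolk RNA in the low-oxygen result was not tested.

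**Figure D5:**
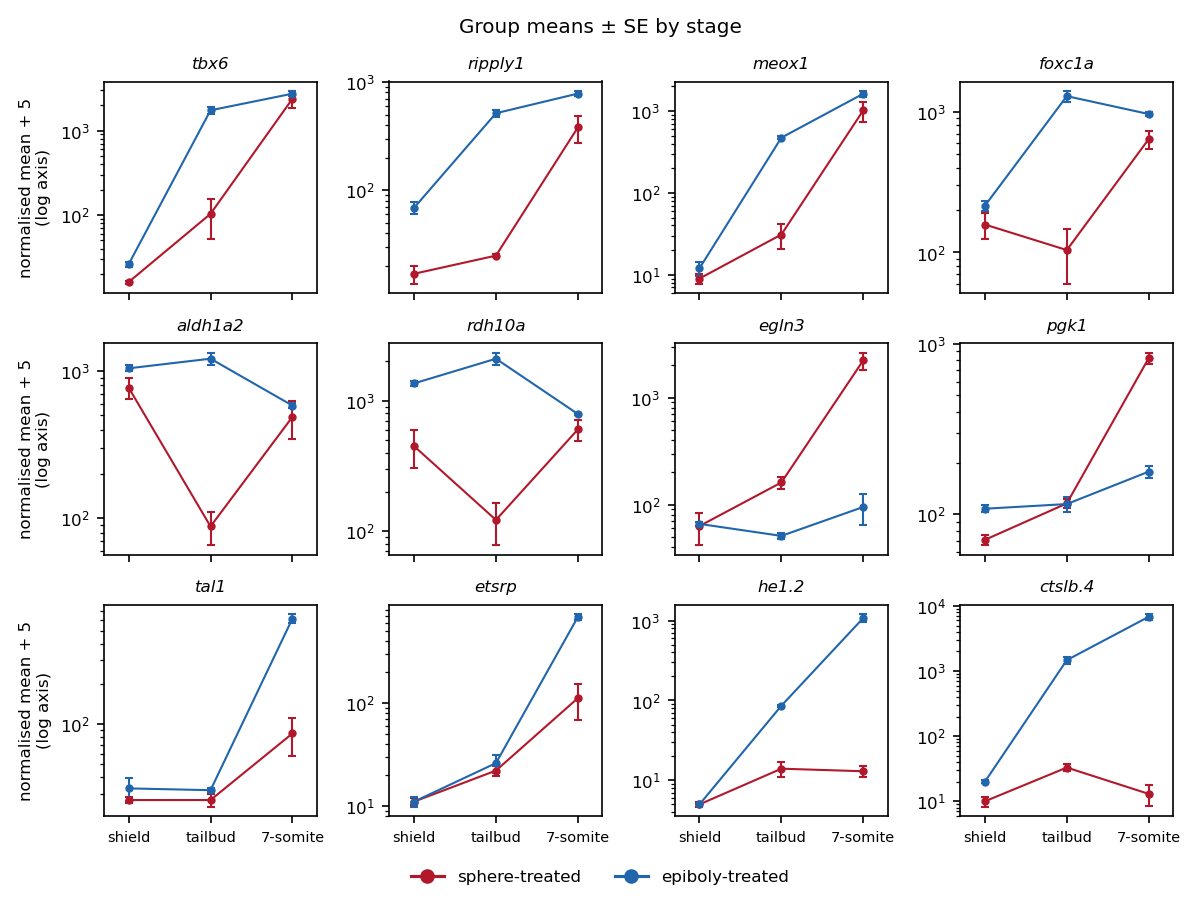
Normalised mean plus 5 on log axes, with bars of 1 SE, at shield, tailbud and 7-somite in sphere-treated (red) and epiboly-treated (blue) embryos for 12 genes whose step is described in the text. tbx6, meox1 and aldh1a2 are low in sphere-treated embryos at tailbud and closer to the other curve at 7-somite, egln3 and pgk1 separate upward, and tal1, he1.2 and ctslb.4 separate downward.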

How the data were processed

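RNA of whole zebrafish embryos was sequenced, per the labels' protocols after isolation with the Qiagen RNeasy Mini kit and library preparation with the Illumina TruSeq RNA v2 kit. The deposited table holds group means, normalised by the authors to the upper quartile per the file headers and rounded to whole numbers. They were treated as scores and not as raw read numbers, and the deposited standard errors are scores on the same scale. The authors also deposited a ratio of the epiboly-treated to the sphere-treated mean at each stage and yes or no calls, which were not used for any result. Of the authors' software, the submitters' processing notes list only DESeq 1.6.1, without saying what it did. Aligner, counting method and genome build: not given in the sources used here. The lowest row maximum is 101, so transcripts low in every group are missing.

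Symbols came from RefSeq names of assembly GRCz12tu, by gene identifier for 12182 records and by accession for 42, with 1097 unmatched. For symbols with more than 1 record, 47 records of lower mean were set aside when genes were named or counted in lists.

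All 11992 of 11992 standard errors tested lie on the grid that 3 whole values give, so 3 values per mean were assumed. The variance of log2(mean + 5) was derived from the standard errors by the delta method and moderated with squeezeVar of limma 3.58.1 in R 4.3.3, with 4 residual degrees of freedom for a step and 8 for the difference between steps. Tests were two-sided over 13321 records and were checked on simulated data. For the step 82% of simulated 1.5-fold changes and 100% of 2-fold ones passed, and for the difference between steps 50% and 97%. Of the calls 3.7% and 6.4% were false. The simulation gave all records of a group the same typical spread, unlike the data, so errors for records with wide spread may be larger. No separate value could be left out.

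The embryo groups, gene lists and tests were chosen with earlier results of these data known. Named genes are the 12 largest rises and falls that passed with a mean of at least 100, the 6 highest and 6 lowest step differences, up to 5 passing and 2 abundant non-passing members of each list, 4 reversals in each direction, and any member of the neural tube and low-oxygen lists. Clone, locus and accession names were left out of all these rankings. Outside this rule, actc1b, foxd3, myod1, neurog1, tbx16, vent and vox are named as members of the stage marker lists. Values of a few genes are not reported here.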

Additional observations from a re-analysis of the deposited data

Results flagged for a closer look

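The results here passed the test of a different tailbud to 7-somite step between embryos treated from sphere stage and from 30% epiboly. In all 174 records had a higher (more positive) and 96 a lower (more negative) log2 step in sphere-treated embryos. The threshold was an adjusted p under 0.05 over 13321 records (limma-moderated test). A lower step is not always a smaller change. Of the 96 lower steps 40 fell in sphere-treated embryos and did not pass in epiboly-treated ones, and 22 fell in both. Values below are log2 step differences, sphere-treated minus epiboly-treated. Of the genes named below 15 no longer passed without moderation of the variance, and 12 with 2 values behind each mean. Several were close to the threshold, among them pcdh8 (adjusted p = 0.045), six4a (0.044), dhfr (0.044), rpgra (0.042) and hoxb1a (0.040).

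Among presomitic, somite and muscle genes the difference was 3.87 for tbx6, 3.32 for ripply1, 3.22 for pcdh8, 1.41 for tbx16, 3.25 for meox1, 3.04 for foxc1a, 3.01 for six4a, 2.20 for tcf15 and 2.22 for actc1a. It was 3.32 for lbx2, 3.71 for fsta, 3.53 for aldh1a2 and 3.71 for rdh10a. Other mesodermal, midline and neural genes with a higher step were aplnrb (2.57), tbx1 (1.86), foxa2 (3.08), pax8 (2.59), hoxb1a (2.02) and wif1 (2.33). Outside these groups cyp1b1 had 2.38 and rpgra 1.63.

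Among low-oxygen and glycolysis genes the difference was 2.89 for egln3, 2.76 for pfkfb3, 2.52 for plod2, 2.37 for aldocb, 2.19 for pgk1, 1.93 for slc16a3b, 1.89 for ldha, 1.62 for p4ha1b and 1.02 for hif1an. The folate gene dhfr had -0.74, since it fell further in sphere-treated (log2 change -2.16) than in epiboly-treated embryos (-1.42).

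Lower steps were also those of he1.2 (-3.75), ctslb.4 (-3.55), he1.1 (-2.78), ctslb (-2.55), tal1 (-2.61) and emilin3b (-2.33).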

How the results depend on the processing

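No paired analysis was possible because the table gives 1 mean per group with no replicate numbers, and leaving out a replicate was not run because the separate values were not analysed. The 3197 rises and 3532 falls were within 1.5 times under the other pseudocounts, the median-of-ratios scaling, the filter at a mean of 100, both other variance priors, 2 values behind each mean and 1 record per symbol. The exceptions were 2334 falls under equal totals, and 1244 rises and 655 falls when a 2-fold change was required as well. Of the 174 higher and 96 lower steps, 112 and 32 differed by at least 2-fold. Without moderation 94 higher steps passed, and with 2 values behind each mean 54 higher and 19 lower passed. A prior that follows the mean gave 201 lower steps, equal totals 54 lower steps, and a variance averaged over all 6 groups 305 higher and 325 lower. The median log2 change was above 0 in 27 lists and in 33 under equal totals, where 6 turned from below to above 0: DNA replication (-0.13 to 0.02), caudal (-0.07 to 0.08), oxidative phosphorylation (-0.06 to 0.09), blood and endothelium (-0.05 to 0.10), translation factor (-0.05 to 0.09) and epidermis (-0.01 to 0.14). The median of all records moved with them, from -0.02 to 0.12, and of the 6 lists only epidermis ended above it. Equal totals multiply each group by 1 factor and so move most records by a similar amount. No named gene that passed changed direction under any of these settings. The cause of the other shifts was not tested. Depth is unknown, and small changes are limited by 3 assumed values per mean.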

Other observations

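Of 77 measured epidermal and periderm genes, 25 rose (32.5%) and 29 fell (37.7%) from tailbud to 7-somite in sphere-treated embryos. Over all records 24.0% rose and 26.5% fell. The tight junction gene cldni went from 157 ± 86.3 to 3136 ± 208, the ionocyte regulator foxi3b from 6 ± 0.577 to 148 ± 35.4 and the basement membrane gene frem3 from 23 ± 6.23 to 303 ± 42.5. The keratin genes krt5 (62752 ± 570 and 72522 ± 2380) and krt92 (12315 ± 78.9 and 12847 ± 530) did not pass. The aryl hydrocarbon receptor target genes cyp1a (13 ± 4.04 to 326 ± 23.3) and cyp1b1 (10 ± 2.31 to 151 ± 12.8) rose, and in epiboly-treated embryos they went from 10 ± 1.86 to 123 ± 13.1 and from 8 ± 1.67 to 21 ± 3.46. The log2 step difference was 2.38 for cyp1b1 (limma-moderated adjusted p = 0.006) and 1.11 for cyp1a, which did not pass (0.14).

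Of 63 measured cilia genes, 27 rose (42.9%) and 5 fell (7.9%), against 24.0% and 26.5% of all records. The rises included the ciliary transcription factor genes rfx4 (253 ± 76 to 1353 ± 85.6) and foxj1b (54 ± 7.02 to 168 ± 4.84), and rpgra (14 ± 2.96 to 107 ± 11.7), whose log2 step difference of 1.63 passed (adjusted p = 0.042).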
